A study of Mus musculus with 6 samples.

Results

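The genes described here encode 10 proteins of the elastic fibre and its microfibrils, namely Eln, Fbn1, Mfap2, Mfap5, Mfap4, Fbln1, Fbln2, Fbln5, Efemp2 and Emilin1. They were taken by symbol from the deposited expression table, in which they are 10 of 23284 gene rows. All 10 passed the filter on low values. The table holds RNA of whole lungs from 3 mice with a transgene for Fra-2 (Fra-2tg) and 3 littermates without it (WT). All 6 had a C57BL/6 background and were 6 weeks old, and each library is 1 mouse. Fra-2, encoded by Fosl2, is a transcription factor of the AP-1 family. The sources used here do not give the promoter that drives the transgene or the cells in which it is active. The comparison asks which genes differ between the genotypes. P-values weigh the genotype difference against the spread between mice of the same genotype, for these 6 mice only.

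Elastic fibres let the lung and its arteries recoil after stretch. They have a core of cross-linked elastin, made from the soluble precursor tropoelastin, and a mantle of microfibrils built on fibrillin. Fibulins and emilin lie at the interface, guide tropoelastin to the microfibrils and bring in the lysyl oxidases that cross-link it. In the lung these proteins come mainly from fibroblasts, smooth muscle cells and, in vessels, endothelial cells, and most elastin is laid down while alveoli form.

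Values are FPKM, which scales fragments by the depth of the library and by transcript length, so levels of different genes are given per length. Fold changes are Fra-2tg minus WT on the log2(FPKM + 1) scale. A gene was called when its limma adjusted p, corrected by the Benjamini-Hochberg method over 14855 tested genes, was under 0.05. The sources used here do not give the depth. A rough estimate from the value of 1 fragment in low genes gave 17100000 to 27300000 fragments in Fra-2tg libraries and 15000000 to 19500000 in WT libraries. At that depth the lowest member value, of Fbln2, would stand for about 630 fragments. Fosl2 was 12.3, 17.4 and 15.8 FPKM in Fra-2tg lungs, against 11.1, 13.9 and 11.2 FPKM in WT lungs. These ranges overlapped and Fosl2 was not called (limma log2 fold change 0.30 ± 0.14 SE, adjusted p = 0.158), so its level does not check the genotype labels. All 6 libraries held lung RNA. Ager, a marker of alveolar type 1 cells, was 1319 to 1594 FPKM in Fra-2tg lungs and 1546 to 1664 FPKM in WT lungs, and Sftpb, a surfactant protein gene, was 3460 to 3642 FPKM in Fra-2tg lungs and 2056 to 2950 FPKM in WT lungs. In all 3 Fra-2tg libraries Sftpc is listed at 0, and so is Scgb1a1, a club cell gene, in Fra-2tg replicate 2 and WT replicate 1. Of 7 epithelial markers 2 were called higher (Sftpb at a ratio of 1.47 and Sftpa1 at 1.70) and 2 lower (Hopx at 0.61, and Sftpc, whose call rests on the listed 0). Among fits that leave out 1 lung, Sftpb was called only without WT replicate 2, and with the rescaling described next it was not called (limma adjusted p = 0.0511) while Ager was called lower (0.0364). A listed 0 in genes of that abundance can be a failed estimate, so no level or change of these genes is read here. Without them the FPKM of a library summed to 537215 to 593094 in Fra-2tg and 492782 to 518906 in WT. Rescaling every library to an equal sum of the other genes, an alternative chosen after seeing the data, moved the median log2 fold change of all tested genes to -0.13, against 0.00 as deposited. Calls that change with this rescaling without Sftpc and Scgb1a1 are given beside each result, by gene or as a count of the list.

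Promoter bases are shown to place the genes in their genomic context. RefSeq start sites on GRCm38.p6 were matched for 7 of the 10 genes, with 12 windows of the 250 bases before a start site. Of these, 2 of Efemp2 overlap and hold the same 5 GC boxes, and the 2 of Fbln1 also overlap. Eln, Mfap5 and Mfap4 had no window, so only 2 of the 4 genes called below could be read. The GC box GGGCGG, searched on both strands, was present in 8 of 12 windows, against 32.7% of all mouse promoter windows of the same length, and in 6 of the 7 genes, against 35.4% of all genes with a window. Emilin1 had none. The AP-1 letters TGANTCA were found in 0 of 12 windows, against 6.75% of all windows, and TATAAA on either strand in 0 of 12, against 12.4%. A missing match says only that these letters are not in this window. For each of the 6 genes, the 30 bases around the GC box nearest to a start site are printed 5′ to 3′ on the gene's strand, with the box in capitals.
Fbn1: aggcccgggtccGGGCGGtggctggcagag
Fbln1: gggagggtccccgcgggccCCGCCCccgcc
Fbln2: gcaaaatcgaggccCCGCCCtgaggcggga
Fbln5: acgcgccccgctCCGCCCtggggaggccgg
Efemp2: ggggtgggccgcggccggcgggcGGGCGGg
Mfap2: gccgtaggggggctctggctgcgGGGCGGc
These stretches lie at chr2:125506606-125506635 (minus strand) for Fbn1, chr15:85205978-85206007 (plus) for Fbln1, chr6:91212734-91212763 (plus) for Fbln2, chr12:101819150-101819179 (minus) for Fbln5, chr19:5474660-5474689 (plus) for Efemp2 and chr4:141010651-141010680 (plus) for Mfap2. The RefSeq start site used lay 1555 bases downstream of the GENCODE gene start for Fbn1, 59 for Fbln1, 309 for Fbln2, 736 for Efemp2 and 263 for Mfap2. The printed stretches of these genes thus lie within the GENCODE gene, and that of Fbln5 lies before it. Of the 6 genes with a printed stretch, Fbn1 and Fbln2 were called higher in Fra-2tg, and Fbln1, Fbln5, Efemp2 and Mfap2 were not called.

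RNA of 4 of the 10 genes was higher in Fra-2tg lungs: the elastin gene Eln, the microfibril genes Mfap5 and Fbn1, and the fibulin gene Fbln2. None was called lower, and 6 were not called. Of all tested genes 13.6% (2027) were called higher and 13.0% (1936) lower. With the rescaling without Sftpc and Scgb1a1 these were 1148 higher and 3438 lower, and 3 members (Eln, Mfap5 and Fbln2) were called higher and 0 lower. The median log2 fold change was 0.36 over the 10 genes and 0.00 over all tested genes. For 6 genes every Fra-2tg value lay above every WT value, and for the other 4 the groups overlapped; 23.3% of all tested genes were apart in that direction. In whole lung, more or fewer cells of a type cannot be told apart from more or less RNA per cell.

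**Figure D1:**
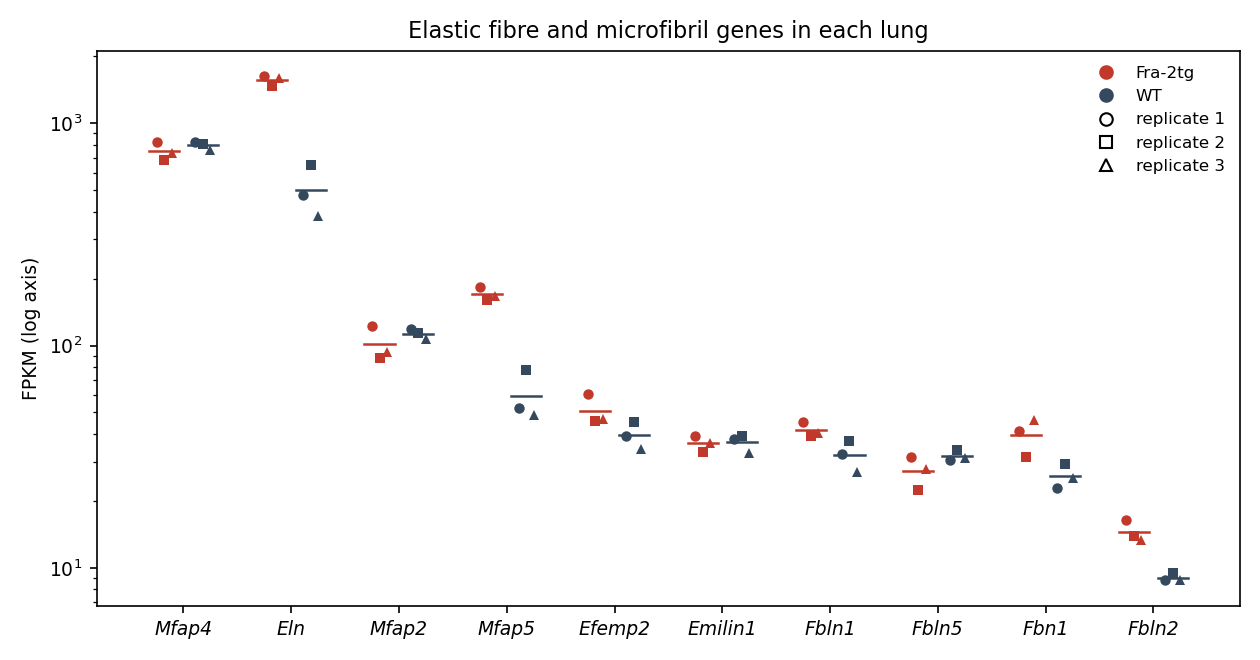
FPKM (log axis) of the 10 genes in each of the 3 Fra-2tg lungs (red) and the 3 WT lungs (dark blue), with symbols for replicates 1 to 3 and a dash at the group mean. Eln and Mfap5 lie far apart by genotype, while Mfap4, Mfap2, Emilin1 and Fbln5 overlap.

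Eln, the gene of tropoelastin and so of the fibre core, differed most. It lies at chr5:134702593-134747323 on the minus strand of GRCm38. Its values were 1632, 1475 and 1603 FPKM in Fra-2tg lungs, against 477, 647 and 381 FPKM in WT lungs. The lowest Fra-2tg lung was thus above the highest WT lung, WT replicate 2. The means were 1570.1 ± 83.6 FPKM in Fra-2tg and 502 ± 135 FPKM in WT (SD, n = 3 each), a 3.13-fold difference, with a log2 fold change of 1.68 ± 0.19 SE (95% interval 1.23 to 2.13, limma adjusted p = 0.00225). Only 122 tested genes, Eln included, rose as far on this scale (0.821%). By mean FPKM, Eln stood at rank 36 of the tested genes in Fra-2tg and at rank 136 in WT. The Fra-2tg lungs also lay closer together, with a coefficient of variation of 5.33% in Fra-2tg and 26.9% in WT.

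The microfibril genes did not move together. Fbn1 encodes fibrillin-1, the backbone of the microfibril. Mfap2 (MAGP-1) and Mfap5 (MAGP-2) encode the paired small glycoproteins that decorate it. Mfap4 encodes a fibrinogen-related protein that binds both tropoelastin and fibrillin.

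Mfap5 (chr6:122505845-122529290, plus strand) was 184, 161 and 168 FPKM in Fra-2tg lungs, against 52.6, 77.3 and 48.7 FPKM in WT lungs. As for Eln, WT replicate 2 was the highest WT lung and still lay below every Fra-2tg lung. The means were 171 ± 11.9 FPKM in Fra-2tg and 59.5 ± 15.5 FPKM in WT (SD, n = 3 each), 2.87-fold apart, with a log2 fold change of 1.53 ± 0.17 SE (limma adjusted p = 0.00215). A rise of this size or more was found in 1.02% of tested genes.

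Mfap2 (chr4:141010418-141015984, plus strand), which encodes the closest relative of the Mfap5 protein, was 123, 88.2 and 93.3 FPKM in Fra-2tg lungs, against 118, 114 and 107 FPKM in WT lungs. Fra-2tg replicate 1 was above all WT lungs and the other two were below them. The log2 fold change was -0.17 ± 0.13 SE (95% interval -0.47 to 0.13, limma adjusted p = 0.362). Without Fra-2tg replicate 1 the gene was called lower in Fra-2tg, at -0.32 (limma adjusted p = 0.0421).

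Fbn1 (chr2:125300594-125507993, minus strand) was 41.2, 31.4 and 46.1 FPKM in Fra-2tg lungs, against 22.8, 29.3 and 25.3 FPKM in WT lungs. The groups were apart, but Fra-2tg replicate 2 lay close to WT replicate 2. The means were 39.6 ± 7.48 FPKM in Fra-2tg and 25.8 ± 3.25 FPKM in WT (SD, n = 3 each), 1.53-fold apart, with a log2 fold change of 0.59 ± 0.15 SE (limma adjusted p = 0.0318). The gene was no longer called without Fra-2tg replicate 1 (limma adjusted p = 0.0968), Fra-2tg replicate 3 (0.0778), WT replicate 1 (0.0845) or WT replicate 3 (0.0954), or with the rescaling without Sftpc and Scgb1a1 (0.0985).

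Mfap4 (chr11:61485431-61488900, plus strand) was among the most abundant RNAs of both groups and showed no called difference. It was 825, 687 and 736 FPKM in Fra-2tg lungs, against 823, 809.5 and 754 FPKM in WT lungs. The highest and the lowest value both came from Fra-2tg lungs. The log2 fold change was -0.09 ± 0.10 SE, with a 95% interval of -0.32 to 0.14 (limma adjusted p = 0.531).

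Of the 4 fibulin genes, Fbln2 was called higher and the others were not called; differences between them were not tested. Fbln2 encodes fibulin-2, which binds fibrillin and tropoelastin. Fbln5 encodes fibulin-5, which mice need to form organised elastic fibres in lung, skin and arteries. Efemp2 encodes fibulin-4, which brings lysyl oxidase to tropoelastin, and mice without it make almost no intact elastic fibres. Fbln1 encodes fibulin-1, a component of the elastin core and of basement membranes.

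Fbln2 (chr6:91212455-91272540, plus strand) was 16.4, 13.9 and 13.4 FPKM in Fra-2tg lungs, against 8.78, 9.52 and 8.83 FPKM in WT lungs. Every Fra-2tg lung was above every WT lung by more than the spread within either group. The means were 14.5 ± 1.61 FPKM in Fra-2tg and 9.04 ± 0.413 FPKM in WT (SD, n = 3 each), 1.61-fold apart, with a log2 fold change of 0.63 ± 0.09 SE (limma adjusted p = 0.00382). Although the least abundant of the 10, it was with Eln and Mfap5 one of the genes called under all 17 alternative settings, the 6 that leave out a lung included.

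Fbln1 (chr15:85205949-85286535, plus strand) was 45.5, 39.3 and 40.4 FPKM in Fra-2tg lungs, against 32.6, 37.3 and 27.1 FPKM in WT lungs. The groups were apart, yet the gene missed the threshold, with a log2 fold change of 0.37 ± 0.12 SE (limma adjusted p = 0.0634). It was called without WT replicate 2, at 0.48 (limma adjusted p = 0.0283), and with robust moderation (limma adjusted p = 0.0489).

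Efemp2 (chr19:5473954-5482517, plus strand) was 60.4, 45.8 and 46.6 FPKM in Fra-2tg lungs, against 39.1, 45.5 and 34.3 FPKM in WT lungs. The lowest Fra-2tg lung and the highest WT lung were nearly level. The log2 fold change was 0.35 ± 0.14 SE (limma adjusted p = 0.108).

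Fbln5 (chr12:101746565-101819055, minus strand) was 31.6, 22.4 and 27.8 FPKM in Fra-2tg lungs, against 30.4, 33.9 and 31.3 FPKM in WT lungs. Of the Fra-2tg lungs, 2 lay below all WT lungs and 1 lay among them. The log2 fold change was -0.23 ± 0.12 SE, with a 95% interval of -0.52 to 0.06 (limma adjusted p = 0.204).

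Emilin1 encodes an elastin microfibril interface protein. The gene (chr5:30913402-30921277, plus strand) was 39.3, 33.1 and 36.5 FPKM in Fra-2tg lungs, against 38.1, 39.2 and 32.9 FPKM in WT lungs. Its ranges almost coincided, with a log2 fold change of -0.02 ± 0.09 SE and a 95% interval of -0.23 to 0.20 (limma adjusted p = 0.92).

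**Figure D2:**
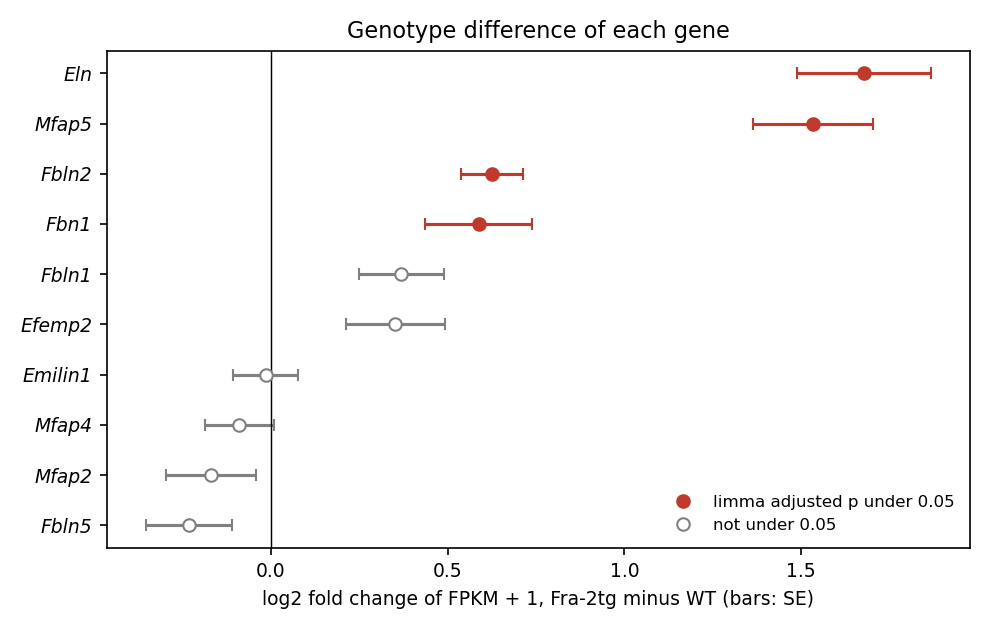
Log2 fold change of FPKM + 1, Fra-2tg minus WT, for each of the 10 genes (horizontal axis), with bars of 1 SE. Filled points are the 4 genes called by limma, of which Eln at 1.68 and Mfap5 at 1.53 stand far right of Fbln2 at 0.63 and Fbn1 at 0.59.

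The order of the levels per length differed at the top. In Fra-2tg lungs Eln was highest, followed by Mfap4, Mfap5, Mfap2 and Efemp2, and each of these ranges was apart from the next. Below them came Fbln1, Fbn1 and Emilin1. Fbn1 overlapped both of the others, while the lowest Fbln1 value (39.34 FPKM) lay just above the highest of Emilin1 (39.33 FPKM). Then came Fbln5 and last Fbln2. In WT lungs Mfap4 was highest, followed by Eln, Mfap2, Mfap5 and Efemp2. Of these only Efemp2 overlapped its lower neighbour, Emilin1; Fbln1 and Fbln5 followed within overlapping ranges, and Fbn1 and Fbln2 were lowest. Eln and Mfap4 thus stood in opposite order in the 2 genotypes, and so did Mfap5 and Mfap2.

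Most of the difference in the summed level came from Eln. The 10 genes summed to 2999, 2596 and 2811 FPKM in Fra-2tg lungs, against 1643, 1843 and 1450.3 FPKM in WT lungs, a 1.70-fold difference of the means. Without Eln the sums averaged 1232 ± 124 FPKM in Fra-2tg and 1144 ± 66.0 FPKM in WT (SD, n = 3 each), a ratio of 1.08. Eln made up 54.4%, 56.8% and 57.0% of the sum in Fra-2tg lungs, against 29.03%, 35.1% and 26.3% in WT lungs. Mfap4 made up 26.7% ± 0.71 in Fra-2tg and 48.7% ± 4.23 in WT (SD, n = 3 each).

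Ratios within a library do not depend on how libraries were scaled, and they show how unequal the changes were. Eln over Mfap4 was 1.98, 2.15 and 2.18 in Fra-2tg lungs, against 0.58, 0.799 and 0.505 in WT lungs. Eln over Fbn1 was 39.6, 46.9 and 34.8 in Fra-2tg lungs, against 20.9, 22.1 and 15.04 in WT lungs. Both ratios were higher in every Fra-2tg lung. Eln over Mfap5 was 8.88, 9.19 and 9.55 in Fra-2tg lungs, against 9.07, 8.37 and 7.83 in WT lungs, and here the groups overlapped (exact two-sided permutation test, p = 0.2). Over the 9 ratios of Eln to another member, the other 8 were apart with an exact permutation p = 0.1, the smallest that 3 against 3 mice allow, and 0.1125 after Benjamini-Hochberg adjustment over the 9. The ratio of Eln to a gene was apart in the same direction for 97.4% of all tested genes, so this is no property of the members. Mfap5 over Mfap2, a pair picked after its values were seen, was 1.49, 1.82 and 1.80 in Fra-2tg lungs, against 0.444, 0.676 and 0.456 in WT lungs.

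**Figure D3:**
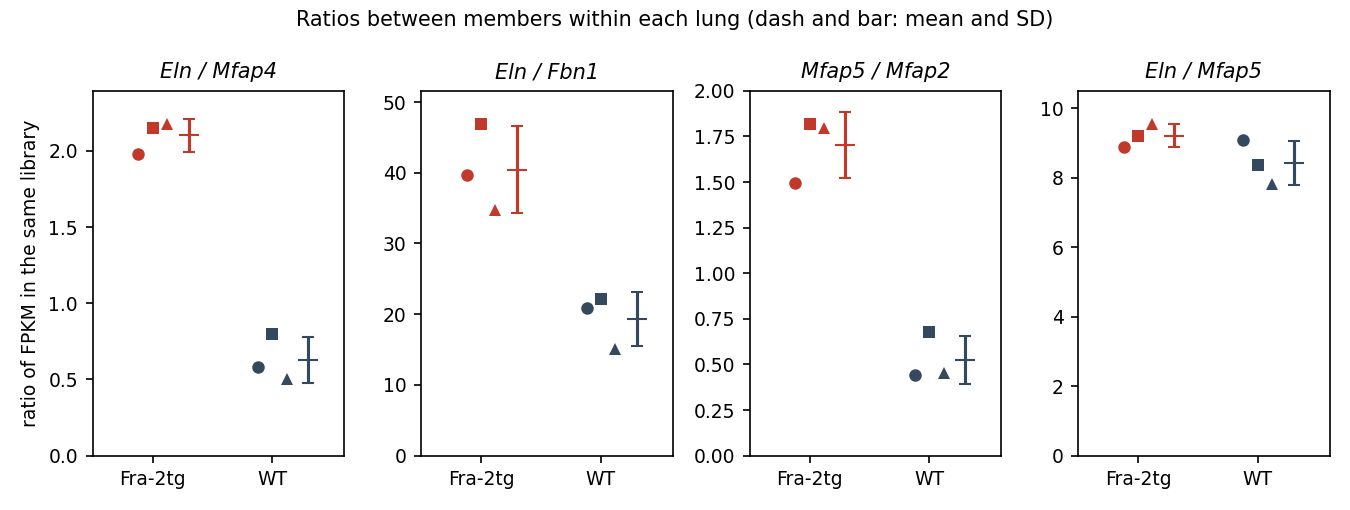
Ratios of FPKM within each library for 4 pairs of genes (vertical axes from 0), with Fra-2tg in red on the left and WT in dark blue on the right of each panel. Points are lungs (circle, square and triangle for replicates 1 to 3), and the dash and bar give mean and SD; the first 3 ratios are apart by genotype and Eln over Mfap5 overlaps.

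Lungs of 1 genotype also tended to be high or low across several members. Among Fra-2tg lungs, replicate 1 held the highest value for 9 of the 10 genes, all but Fbn1, whereas it held the highest Fra-2tg value in 35.7% of all tested genes. Fra-2tg replicate 2 held the lowest value for 9 genes, all but Fbln2, against 37.9% of all tested genes. Among WT lungs, replicate 2 held the highest value for 8 genes, all but Mfap2 and Mfap4, against 33.8% of all tested genes, and replicate 3 the lowest for 7, against 35.9%. Leaving out WT replicate 2 raised the log2 fold change of Eln to 1.88 and of Mfap5 to 1.73, and leaving out WT replicate 3 lowered them to 1.496 and 1.405.

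Over the 6 libraries, the genes with levels most like those of Eln, by Pearson correlation of log2(FPKM + 1) among 7603 genes that averaged 10 FPKM or more, were Ccdc109b (r = 0.9992), Lilrb3 (0.9991), the macrophage glycoprotein gene Cd68 (0.9989), Rps6ka4 (0.9988) and the gelatinase gene Mmp2 (0.9985). For Mfap5 they were Pde1b (0.9996), Nsf (0.9992), Hmgb3 (0.9991), Rps6ka4 (0.999) and Ccdc85b (0.9989). Mfap5 was 15th for Eln, at 0.9967. These correlations are descriptions. All genes share the same 6 libraries, in which the genotype difference sets most of the value, and 90 genes reached 0.99 with Eln and 115 with Mfap5.

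Other genes of the elastic fibre moved in both directions. List counts here and below are to be read beside all tested genes, of which 13.6% were called higher and 13.0% lower. Of 22 further microfibril and elastic fibre components, 18 were tested, 5 were called higher and 8 lower, with a median log2 fold change of -0.12. Without 1 lung the calls ranged from 3 to 6 higher and from 4 to 6 lower; the fewest lower calls, 4, came without WT replicate 3, and the fewest higher calls, 3, without Fra-2tg replicate 1, Fra-2tg replicate 3 or WT replicate 3. Lower calls numbered 5 without Fra-2tg replicate 2 and 5 without WT replicate 2. With the rescaling without Sftpc and Scgb1a1, 3 were called higher and 9 lower. Mmrn1 was listed at 0 in all libraries.

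Efemp1, the gene of fibulin-3, was 101, 86.2 and 96.4 FPKM in Fra-2tg lungs, against 59.6, 64.2 and 62.0 FPKM in WT lungs (1.53-fold, limma adjusted p = 0.00273). Mmrn2, an endothelial member of the emilin family, was 1.49-fold higher in Fra-2tg (limma adjusted p = 0.00278). Genes of the ADAMTS and ADAMTSL families, of which several act on fibrillin, went in both directions. Adamtsl5 was 15.3, 13.4 and 16.0 FPKM in Fra-2tg lungs, against 25.9, 26.6 and 25.0 FPKM in WT lungs (ratio 0.577, limma adjusted p = 0.00169). Adamts10, a protease needed for normal fibrillin microfibrils, was 52.3, 39.0 and 46.3 FPKM in Fra-2tg lungs, against 90.9, 81.7 and 93.8 FPKM in WT lungs (ratio 0.516, limma adjusted p = 0.00257). For both, every Fra-2tg lung was below every WT lung. Of relatives outside the naming rule, Adamtsl4 (ratio 0.603, limma adjusted p = 0.00741) and Adamts6 (0.474, limma adjusted p = 0.0236) were also called lower. Adamts6 averaged 0.424 FPKM in Fra-2tg and 0.895 FPKM in WT, and among fits without 1 lung it was called only without WT replicate 1. Thsd4 was called higher (1.56-fold, limma adjusted p = 0.0223), although not without Fra-2tg replicate 1 or 3 or WT replicate 3 or with the rescaling without Sftpc and Scgb1a1. Adamtsl2 (ratio 1.14) and Adamts17 (1.04) were not called.

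The latent TGF-beta binding proteins are fibrillin relatives that take part in fibre assembly. Ltbp4, which supports fibulin-5 function, was 186, 138 and 170 FPKM in Fra-2tg lungs, against 202, 219 and 185 FPKM in WT lungs, and was not called (limma adjusted p = 0.113), except as lower with the rescaling without Sftpc and Scgb1a1 (0.0384). Ltbp2 was 53.8, 43.3 and 52.7 FPKM in Fra-2tg lungs, against 40.1, 43.4 and 38.1 FPKM in WT lungs (limma adjusted p = 0.0685), and was called higher without Fra-2tg replicate 2 (limma adjusted p = 0.0179). The other 2 tested, named after their values were seen, were called lower with every Fra-2tg lung below every WT lung: Ltbp1 at a ratio of 0.76 (limma adjusted p = 0.0142), a call lost without WT replicate 3, and Ltbp3 at 0.848 (limma adjusted p = 0.0461), which among fits without 1 lung was called only without Fra-2tg replicate 1. Fbn2, the gene of fibrillin-2, the second fibrillin of developing tissue, was too low to be tested. It was 0.316, 0.157 and 0.224 FPKM in Fra-2tg lungs, against 0.0719, 0.13 and 0.11 FPKM in WT lungs.

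Lysyl oxidases cross-link tropoelastin and collagen. Of 9 cross-linking genes, all tested, 2 were called higher and 0 lower, with a median log2 fold change of 0.17. Only 1 was called without Fra-2tg replicate 3, WT replicate 1 or WT replicate 3, and with the rescaling without Sftpc and Scgb1a1 1 was called higher and 1 lower. Loxl2 was 34.4, 28.2 and 34.2 FPKM in Fra-2tg lungs, against 12.7, 17.5 and 13.3 FPKM in WT lungs (2.22-fold, log2 fold change 1.11 ± 0.13 SE, limma adjusted p = 0.00265). Loxl1, whose product mice need to renew elastic fibres in adult tissue, was 117, 93.9 and 101 FPKM in Fra-2tg lungs, against 67.6, 83.8 and 64.4 FPKM in WT lungs. It was 1.44-fold higher in Fra-2tg (limma adjusted p = 0.022), and the call was lost without Fra-2tg replicate 1 (0.0673), Fra-2tg replicate 3 (0.053), WT replicate 1 (0.0626) or WT replicate 3 (0.0754), or with the rescaling without Sftpc and Scgb1a1 (0.0538). Lox itself was 27.3, 27.7 and 33.7 FPKM in Fra-2tg lungs, against 26.3, 24.1 and 27.8 FPKM in WT lungs, and was not called (limma adjusted p = 0.231).

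Genes of proteases that can cut elastin were mostly higher in Fra-2tg lungs. Of 13, 10 were tested, 7 were called higher and 1 lower, with a median log2 fold change of 0.62. Of all tested genes 13.6% were called higher and 13.0% lower. Without 1 lung 6 to 7 of the list were called higher, and the lower call was kept only without WT replicate 1. With the rescaling without Sftpc and Scgb1a1 6 were called higher, and Ctsl was no longer called (limma adjusted p = 0.284). The summed level of the list was 1110 to 1116 FPKM in Fra-2tg lungs and 502 to 655 FPKM in WT lungs, with Ctsg, a neutrophil protease gene, listed at 0 in all libraries. Mmp12, the gene of macrophage elastase, was 22.7, 37.2 and 29.5 FPKM in Fra-2tg lungs, against 1.35, 6.88 and 1.48 FPKM in WT lungs (9.21-fold on means, limma adjusted p = 0.00516). WT replicate 2 was again the highest WT lung. Ctsk, the gene of cathepsin K, was 56.5, 67.5 and 67.8 FPKM in Fra-2tg lungs, against 16.8, 27.1 and 14.2 FPKM in WT lungs (3.30-fold, limma adjusted p = 0.00306). Mmp2 was 272, 243 and 276 FPKM in Fra-2tg lungs, against 90.9, 124 and 81.0 FPKM in WT lungs (2.67-fold, limma adjusted p = 0.00205). The other cathepsin genes named, Ctss at 2.44-fold (limma adjusted p = 0.00197) and Ctsb at 1.62-fold (limma adjusted p = 0.00245), were also higher in every Fra-2tg lung. Cela1, a pancreatic-type elastase expressed in lung, averaged 1.23 FPKM in Fra-2tg and 1.51 FPKM in WT and was not called (limma adjusted p = 0.679).

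Inhibitors of these proteases also differed. Of 14 tested, 4 were called higher and 2 lower, with a median log2 fold change of 0.53. That median falls between Serpina1c and Serpina1b, both uncalled and low, whose highest values (3.20 and 3.55 FPKM) came from Fra-2tg replicate 2. Without 1 lung 3 to 4 were called higher, and 1 was called lower without Fra-2tg replicate 1 or 2 or WT replicate 2 or 3. Timp1, an inhibitor of matrix metalloproteinases, was 43.7, 53.4 and 39.4 FPKM in Fra-2tg lungs, against 15.3, 18.7 and 7.25 FPKM in WT lungs (3.30-fold, limma adjusted p = 0.00926). Serpinb1a, which inhibits neutrophil elastase, was 2.17-fold higher (limma adjusted p = 0.00251), and Cstb, the gene of a cathepsin inhibitor, 1.77-fold higher (limma adjusted p = 0.00335). Timp4 was lower in Fra-2tg, at a ratio of 0.321 (limma adjusted p = 0.0122). The summed level of the list was 2774 to 3042 FPKM in Fra-2tg lungs and 1922 to 2250 FPKM in WT lungs. Most of it was Cst3, at 2182 FPKM in Fra-2tg and 1492 FPKM in WT on average (limma adjusted p = 0.0166). The higher call of Cst3 was lost without Fra-2tg replicate 1, WT replicate 1 or WT replicate 3. It was also lost with no filter (limma adjusted p = 0.0577) or with libraries rescaled to equal sums (0.0549).

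**Figure D4:**
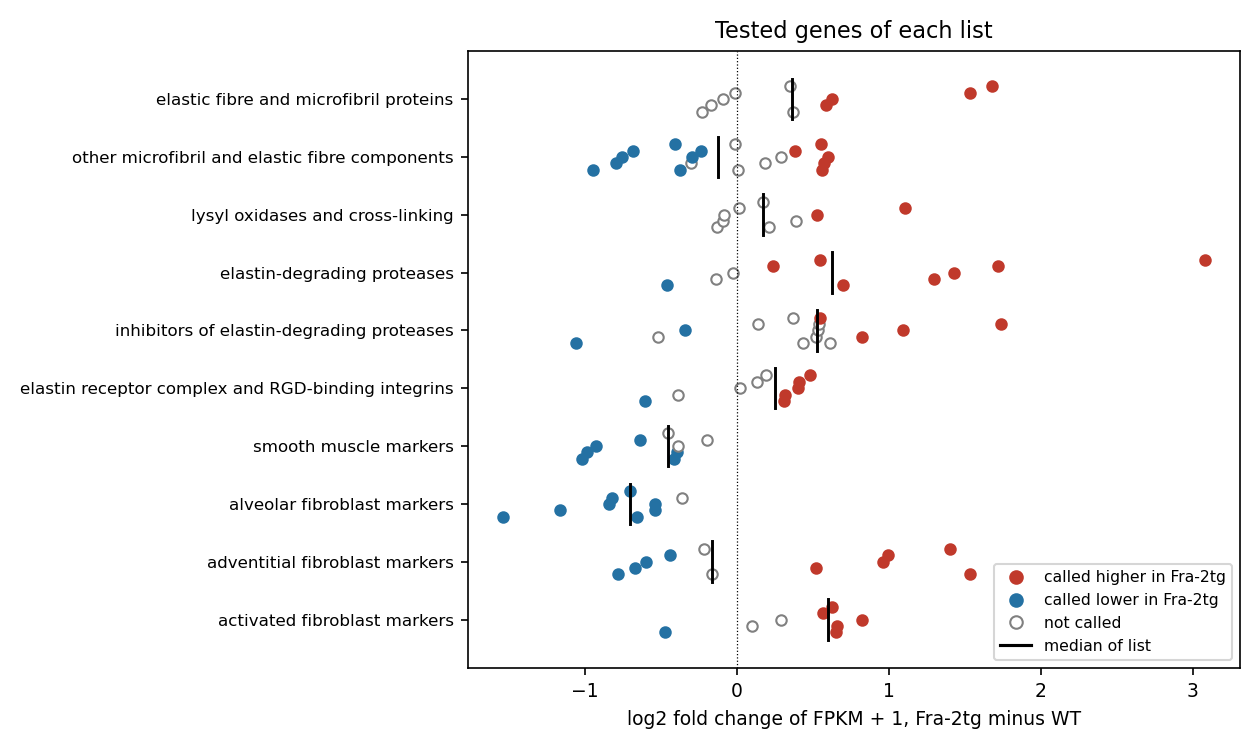
Log2 fold change of FPKM + 1, Fra-2tg minus WT (horizontal axis), of each tested gene in the elastic fibre lists and in 4 lists of muscle and fibroblast markers, with a line at each list's median. The elastin-degrading proteases lie mostly right of 0, at a median of 0.62, and the alveolar fibroblast markers left of it, at a median of -0.70.

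Markers of the cells that make these proteins moved with genotype, and their part in the results above was not tested. Of all tested genes 13.6% were called higher and 13.0% lower. The smooth muscle markers were lower: of 10, 9 were tested, 0 were called higher and 6 lower, with a median log2 fold change of -0.45 and a summed level of 365 to 462 FPKM in Fra-2tg lungs and 530 to 575 FPKM in WT lungs. Des, the gene of desmin, was 54.1 ± 3.23 FPKM in Fra-2tg and 84.7 ± 1.91 FPKM in WT (SD, n = 3 each; limma adjusted p = 0.00155). Synpo2 stood at a ratio of 0.358, Actg2 at 0.499 and Cnn1 at 0.521, all called lower. Acta2, smooth muscle actin, was 157 ± 24.7 FPKM in Fra-2tg and 208 ± 12.2 FPKM in WT (SD, n = 3 each; limma adjusted p = 0.0415), and it was called among the leave-one-out fits only without Fra-2tg replicate 2, and not with libraries rescaled to equal sums (limma adjusted p = 0.0964). Tagln was not called (ratio 0.772, limma adjusted p = 0.0765), but some alternatives called it lower. These included the fit without Fra-2tg replicate 2 (limma adjusted p = 0.0111) and the rescaling without Sftpc and Scgb1a1 (0.013). With that rescaling Myh11 was also called lower (limma adjusted p = 0.0264), against 0.0587 as deposited.

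Alveolar fibroblast markers were lower too. Of 9 tested, 0 were called higher and 8 lower, with a median log2 fold change of -0.70, and 5 were called lower without WT replicate 3. Their summed level was 2022 to 2208 FPKM in Fra-2tg lungs and 2639 to 3089 FPKM in WT lungs. The largest part of it was Inmt, at 1579 FPKM in Fra-2tg and 2027 FPKM in WT on average, which was not called (limma adjusted p = 0.0605). Some alternatives called Inmt lower, among them the rescaling without Sftpc and Scgb1a1 (limma adjusted p = 0.0104). Slc7a10 was called at a ratio of 0.327, Fgfr4 at 0.422, Fgf10 at 0.443, Pdgfra, the receptor that marks these fibroblasts, at 0.557 and Ces1d at 0.636. Npnt, at 0.62, was not called without WT replicate 2 (limma adjusted p = 0.0536) or WT replicate 3 (0.0675).

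Adventitial fibroblast markers split. Of 11 tested, 5 were called higher and 4 lower, with a median log2 fold change of -0.16. Cd34, which vascular endothelial cells also express, was 374 ± 12.3 FPKM in Fra-2tg and 132 ± 41.2 FPKM in WT (SD, n = 3 each; 2.83-fold, limma adjusted p = 0.00304), and Dpt, the gene of dermatopontin, was 1.95-fold higher (limma adjusted p = 0.00172). Pi16 (ratio 0.644), Dcn (0.573) and Clec3b (0.629) were called lower. With the rescaling without Sftpc and Scgb1a1 Serpinf1 was called lower as well (limma adjusted p = 0.0238), against 0.16 as deposited. The list summed to 787 to 833 FPKM in Fra-2tg lungs and 515 to 597 FPKM in WT lungs. By group means, Cd34 was the largest part of this sum in both groups and differed most in FPKM.

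Of 10 activated fibroblast markers, 8 were tested, 5 were called higher and 1 lower, with a median log2 fold change of 0.60. The calls rested on most lungs being present, since 1 was called higher without Fra-2tg replicate 1, Fra-2tg replicate 3 or WT replicate 3, 2 without WT replicate 1, and 3 with the rescaling without Sftpc and Scgb1a1. Tgfbi was 1.49-fold higher (limma adjusted p = 0.00443), Cthrc1 1.69-fold (limma adjusted p = 0.0194) and Tnc, the gene of tenascin-C, 1.89-fold (limma adjusted p = 0.0241). Col1a1, a chain of type I collagen, was 1.58-fold higher (limma adjusted p = 0.0311), a call lost without Fra-2tg replicate 1 or 3 or WT replicate 1 or 3 (limma adjusted p from 0.0796 to 0.1) or with that rescaling (0.07). Postn, which is also on the pericyte list, was lower, at a ratio of 0.717 (limma adjusted p = 0.0103). The list summed to 410 to 518 FPKM in Fra-2tg lungs and 365 to 439 FPKM in WT lungs.

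Other structures that hold elastic tissue or may be carried along with a lung were read from their markers. Of 8 heart and pulmonary vein muscle markers, 0 were called higher and 7 lower (5 without Fra-2tg replicate 1 or WT replicate 3), with a summed level of 82.5 to 158 FPKM in Fra-2tg lungs and 247 to 449 FPKM in WT lungs. Among them Myl7 was 26.1, 44.3 and 21.9 FPKM in Fra-2tg lungs, against 118, 70.3 and 124 FPKM in WT lungs. WT replicate 2, the WT lung with the highest Eln, thus had the least of this RNA among WT lungs, and its part in the results was not tested. Myl4 (ratio 0.333), Tnni3 (0.359), Mb (0.0959) and Myh6 (0.213) were called lower as well. Of 6 adipocyte markers, 4 were tested and all 4 were called lower (Adipoq 0.212, Plin1 0.225, Cfd 0.254 and Cidec 0.387), summing to 14.6 to 16.8 FPKM in Fra-2tg lungs and 40.4 to 68.5 FPKM in WT lungs. Of 8 airway cartilage markers only Cytl1 (ratio 0.185) and Col11a2 (0.548) were tested, and both were lower, although Col11a2 was not called with the smaller pseudocounts or without any 1 of the Fra-2tg lungs. The defining cartilage genes Acan and Col2a1 were near 0 in both groups.

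Arterial endothelial markers gave 2 higher and 3 lower calls of 8 tested, with a summed level of 5402 to 5897 FPKM in Fra-2tg lungs and 3025 to 4281 FPKM in WT lungs that was almost all Mgp. Mgp, the gene of matrix Gla protein, also made by other vessel and cartilage cells, averaged 5442 FPKM in Fra-2tg and 3476 FPKM in WT (1.57-fold, limma adjusted p = 0.0337), and among the leave-one-out fits it was called only without WT replicate 2, and not with libraries rescaled to equal sums (limma adjusted p = 0.064). Gja4 was not called (ratio 1.02), Efnb2 (0.732) and Hey1 (0.585) were lower, and Dkk2, at a low level, was higher (3.93). Gja5, not called as deposited (limma adjusted p = 0.084), was called lower with the rescaling without Sftpc and Scgb1a1 (0.0308). Pericyte markers gave 1 higher and 2 lower calls of 8 tested and summed to 467 to 553 FPKM in Fra-2tg lungs and 486 to 546 FPKM in WT lungs. Of them Higd1b was called at a ratio of 1.29 and Notch3 at 0.763, while Cox4i2 (1.13) and Pdgfrb (0.776) were not called. Higd1b was not called without Fra-2tg replicate 1 or 2 or WT replicate 3, nor Notch3 without Fra-2tg replicate 1 or 2 or WT replicate 2 or 3. With the rescaling without Sftpc and Scgb1a1 Higd1b was not called either (limma adjusted p = 0.0911) and Pdgfrb was called lower (0.0312). Mesothelial markers gave 1 higher and 2 lower of 7 tested, with Upk1b at a ratio of 0.262, Rspo1 at 0.591 and Msln at 1.82, and Upk3b, at 0.752, was not called. The lower call of Rspo1 (limma adjusted p = 0.0394) was lost without any 1 of the Fra-2tg lungs and without WT replicate 3. Msln was called among the leave-one-out fits only without WT replicate 1, and not with that rescaling (limma adjusted p = 0.0516). They summed to 103 to 116 FPKM in Fra-2tg lungs and 105 to 148 FPKM in WT lungs.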

How the data were processed

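Poly(A) RNA of 6 lungs was sequenced with a kit that marks strand by dUTP, and RNA integrity numbers were 7.3 to 9, per the labels' protocols. Per the submitters' processing notes, the build was GRCm38 (mm10) and the tools were Cufflinks 2.2.1, TopHat2 2.0.10, SAMtools 0.1.19, Bowtie 1.0.0 and FastQC. The authors deposited FPKM values, which are not counts. The sources used here do not give whether strand was used or how fragments of overlapping genes were divided.

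Values as log2(FPKM + 1) were tested two-sided with limma 3.58.1 (R 4.3.3), with a variance trend, no covariate and Benjamini-Hochberg adjustment, over genes averaging 0.5 FPKM or more. The pseudocount understates changes of low genes. The fit was tested on simulated data for Fra-2tg against WT with 14855 genes, where it recovered 51.5% of changes of 1.5-fold in FPKM + 1, 86.3% of 2-fold and 95.5% of 4-fold. Far fewer genes were changed in the simulation than the 26.7% called in the data, so these rates are not the power of this comparison. The members and lists were chosen with earlier results of these data known. Named were all members, Fosl2, from each list up to 4 called genes of smallest adjusted p, the 3 most abundant markers of each marker list, Lox, Loxl1, Fbn2, Ltbp4, Ltbp2, Mmp12 and Cela1, and the 5 genes most like Eln and Mfap5. Ager, Acan, Col2a1, Ctsg, Thsd4, Adamtsl2, Adamts17, Ltbp1 and Ltbp3 were named after their values were seen. So were Adamtsl4, Adamts6, Ctsl, Cst3, Serpina1b, Serpina1c, Myh11, Serpinf1 and Gja5. A planned limma test of ratios to Eln, which all share the values of Eln, called 97.9% of genes; it was set aside for exact permutation tests of within-library ratios. Coordinates are from GENCODE on GRCm38.

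Alternatives were pseudocounts of 0.1 and 0.01, a filter at 5 FPKM or none, equal library sums, median-ratio scaling, a replicate block, no trend, robust moderation, library weights and each library left out. Equal sums of all genes but Sftpc and Scgb1a1 were added after seeing the data. Matching protein sequences were not used here.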

Additional observations from a re-analysis of the deposited data

How the results depend on the processing

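Eln, Mfap5 and Fbln2 were called higher under all 17 alternatives. Without 1 lung their log2 fold changes ranged from 1.496 to 1.88, from 1.405 to 1.73 and from 0.54 to 0.68. Fbn1 ranged from 0.47 to 0.74, Fbln1 from 0.25 to 0.48, Fbln5 from -0.34 to -0.10, Efemp2 from 0.22 to 0.45, Mfap2 from -0.32 to -0.077, Mfap4 from -0.16 to -0.03 and Emilin1 from -0.0911 to 0.0482. Emilin1 was uncalled throughout and turned positive with library quality weights (0.0103) and without Fra-2tg replicate 2 (0.0482), WT replicate 1 (0.01) or WT replicate 2 (0.03). Fbln1 was called with robust moderation (0.37, limma adjusted p = 0.0489). With the replicate block Fbn1 was no longer called (0.59, limma adjusted p = 0.0739), and Eln (1.68, limma adjusted p = 0.0111), Mfap5 and Fbln2 still were. No pairing of the mice by number was assumed. Correlations of the deviations of same-numbered libraries were -0.05, 0.01 and 0.16, and not every library correlated best with its own number. With 3 mice a group these correlations cannot decide whether the mice were paired. Members called higher numbered 3 to 5 and lower 0 to 1 without 1 lung, with 1 lower without Fra-2tg replicate 1. All genes called higher numbered 1088 to 1695 without 1 lung and 1132 after rescaling to equal sums, against 2027 as deposited; those called lower numbered 1141 to 1709 and 1169, against 1936. The 5 lists of other elastic fibre genes gave 15 to 23 higher and 6 to 10 lower calls without 1 lung, against 23 and 12, and the marker lists 7 to 15 and 29 to 40, against 16 and 40. The causes were not tested; fits without 1 lung use fewer samples. With libraries rescaled to equal sums of all genes but Sftpc and Scgb1a1, chosen after seeing the data, the median of all genes stood at -0.13, Eln at 1.52, Mfap5 at 1.38 and Fbln2 at 0.48 (still called), and Fbn1 at 0.44 (limma adjusted p = 0.0985, not called); 1148 genes were called higher and 3438 lower, and the 5 lists gave 15 and 14. The other scalings left the median of all genes at 0.0009 and 0.0035; the equal-sums one includes the doubted values of Sftpc and Scgb1a1, and the lower marker calls include Sftpc. Other settings of the limma test of ratios to Eln are not given, since that test was set aside. With 3 mice a group, exact tests cannot go below p = 0.1.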

Other observations

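Cells bind elastic fibres through the elastin receptor complex (Glb1, Neu1 and Ctsa) and through integrins that recognise an RGD sequence in fibrillin and fibulins. Of 11 such genes 10 were tested, 5 were called higher in Fra-2tg lungs and 1 lower, with a median log2 fold change of 0.25, against 13.6% of all tested genes called higher and 13.0% lower. Without 1 lung 2 to 4 were called higher, with 2 without Fra-2tg replicate 1, WT replicate 1 or WT replicate 3 and 3 without Fra-2tg replicate 3. With libraries rescaled to equal sums of all genes but Sftpc and Scgb1a1 only 1, Glb1, was called higher and 1 lower. Glb1, which yields the elastin-binding splice form, was 1.34-fold higher (limma adjusted p = 0.00782, and 0.0866 with libraries rescaled to equal sums). Itga5 was 1.25-fold higher (limma adjusted p = 0.00756, and 0.0929 with that rescaling). Itgb3 was lower, at a ratio of 0.62 (limma adjusted p = 0.00703). Itgav was 1.46-fold higher (limma adjusted p = 0.0311), and among fits that leave out 1 lung it was called only without Fra-2tg replicate 2.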
